A study of Mus musculus with 6 samples.

Results

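Imprinted genes are expressed mainly from the copy inherited from one parent. A list of 40 mouse imprinted genes was followed in bulk RNA-seq of day 5 gastruloids, aggregates of embryonic stem cells (ESCs) that form body axis tissues in culture. They were found by matching the Ensembl identifiers of the count table to gene symbols. Of the 35565 identifiers in the table, 39 belonged to these genes, and *Zrsr1* (U2AF1-related splicing factor) was not analysed here. All libraries came from the mouse ESC line TBV2 (129/SvP), aggregated into gastruloids and given 3 µM CHIR99021, which activates WNT signalling by blocking GSK3, between hours 48 and 72. The control group, Control (NT), had 3 libraries from ESCs carrying a non-targeting construct, although its genotype label reads WT. The knockdown group, KD-1, had 3 libraries from 1 knockdown clone of the ultraconserved lncRNA *T-UCstem1*. Because each group rests on a single ESC line, silencing of *T-UCstem1* and other differences between the lines cannot be told apart.

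Imprinted genes lie in clusters, and most clusters hold a control region whose DNA is methylated on only one parental copy. The mark is set in the germ line and kept through early development by factors such as ZFP57 and TRIM28. Among the loci of this list the methylated copy of the germline control region is mostly the maternal one, whereas at *Igf2*-*H19*, *Dlk1*-*Dio3* and *Rasgrf1* it is the paternal one. Many paternally expressed genes, such as *Igf2*, promote fetal growth, and several maternally expressed genes, such as *Igf2r*, *Cdkn1c* and *Phlda2*, restrain it. RNA-seq totals per gene do not separate the parental copies, so the values below are total levels and say nothing of which copy was read.

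Depth ranged from 20982249 to 56674906 counts in Control (NT) and from 41180012 to 85561026 in KD-1, and a library is called lowest, middle or highest by its depth in the group, the order in which values are listed. Levels are CPM, counts scaled to a common library size after TMM normalization. Within each group, no pair of libraries was as close as sampling noise allows, the smallest chi-square being 4.67 per degree of freedom. The Control (NT) library of middle depth stood apart most within its group, at 34.0 and 34.3 against the other Control (NT) libraries. A gene was called when its adjusted p in edgeR's quasi-likelihood test was under 0.05 (Benjamini-Hochberg over all genes tested) and its fold change was over 1.5 in either direction. Of the 15110 genes tested in this way, 37.7% were called, with 19.7% higher in KD-1 and 18.1% lower, which is the background for each count of called genes given at this threshold.

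Of the 39 imprinted genes in the table, 36 passed the filter on low counts. In KD-1, 9 of them were called higher, 15 were called lower and 12 were not called. The 9 that rose were *Plagl1*, *Calcr*, *Asb4*, *Peg10*, *Magel2*, *Mkrn3*, *Snrpn*, *Ube3a* and *Nap1l5*. Those that fell included several of the most abundant ones, the growth factor gene *Igf2*, the zinc finger gene *Peg3*, the proteolipid gene *Nnat* and the G protein gene *Gnas*. Over these 36, log2 fold changes had a median of -0.48, beside -0.01 over all genes tested. The groups did not overlap for 31 of the 36 genes, and they did not for 70.6% of all genes tested. With no fold threshold, 30 of the 36 passed the adjusted p, beside 63.5% of all genes tested. At least 1 gene was called in 13 of the 18 loci, a count for which the share of all genes called is no background. The loci hold from 1 to 8 listed genes, and the only one at *Rasgrf1* was not tested. In whole gastruloids, fewer cells of a type and less RNA per cell cannot be told apart.

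**Figure D1:**
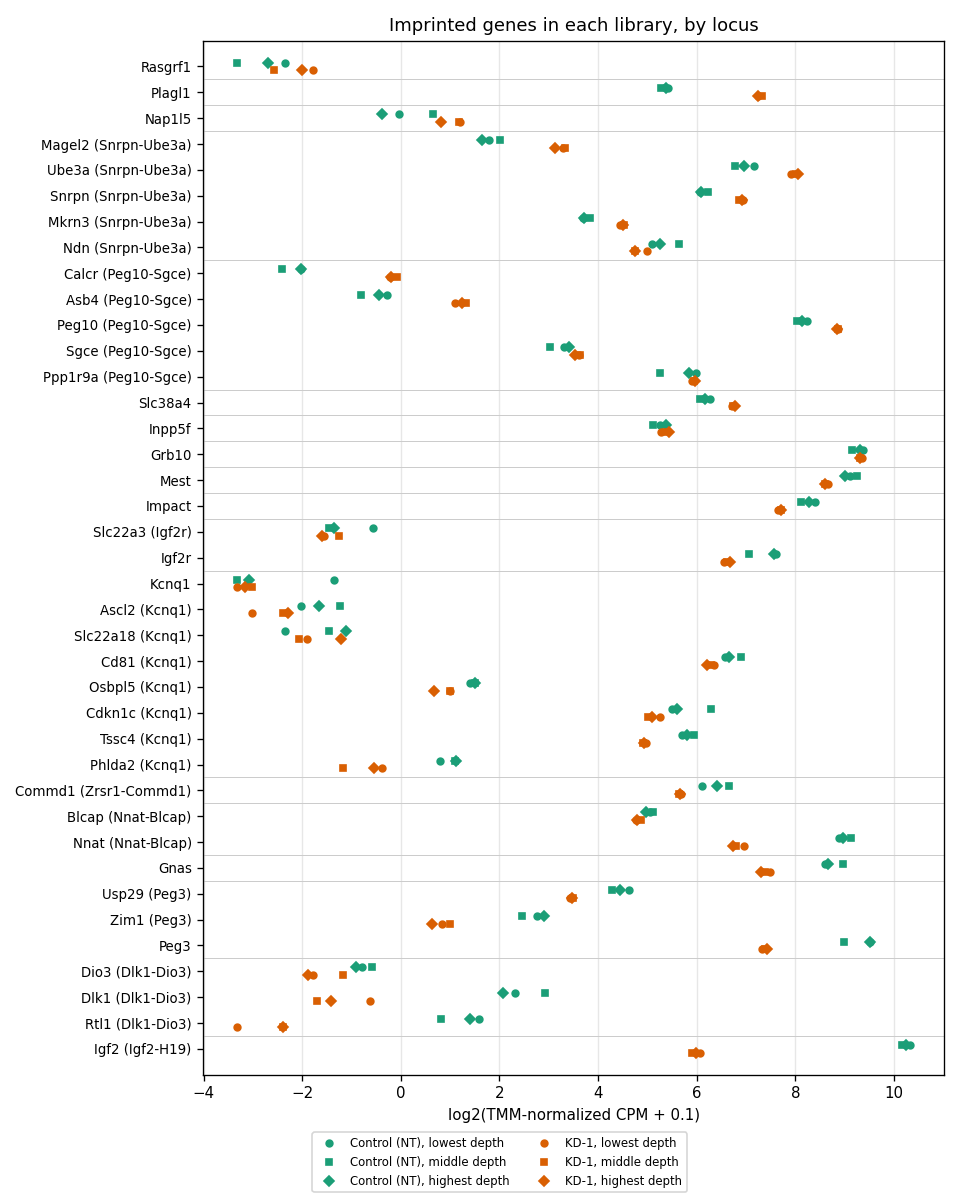
Level of each of the 39 imprinted genes in each library, as log2(TMM-normalized CPM + 0.1), with Control (NT) in green and KD-1 in orange, 1 point per library, marker shape giving the depth rank and lines separating loci. *Igf2* lies highest in Control (NT), between 1152 and 1286 CPM, and between 59.8 and 67.2 CPM in KD-1.

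*Igf2*, the fetal ligand of the IGF1 receptor (ENSMUSG00000048583, GRCm39 chromosome 7, from 142204503 to 142220694, minus strand), had the highest CPM of the list in Control (NT). Its level was 1286, 1152 and 1219 CPM in Control (NT) and 67.2, 59.8 and 63.4 CPM in KD-1. The groups were far apart, with little spread within either, and *Igf2* was 19.2-fold lower in KD-1 (log2 fold change -4.26, standard error 0.08, adjusted p = 4.8e-09 in edgeR's quasi-likelihood test). *Igf2r*, whose product carries IGF2 to the lysosome, fell from 195, 134 and 188 CPM to 94.0, 97.2 and 102 CPM. Every Control (NT) library lay above every KD-1 library, and the log2 fold change was -0.82 (standard error 0.13, edgeR adjusted p = 5.8e-04). *Slc22a3*, an organic cation transporter gene of the *Igf2r* locus, had at most 20 counts in any library, and its groups overlapped (log2 fold change -0.45, 95% interval -1.51 to 0.61).

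*Grb10*, which encodes an adaptor that restrains insulin and IGF1 receptors, was not called. It had 662, 566 and 639 CPM in Control (NT) and 650.0, 637 and 634 CPM in KD-1, with overlapping groups. Its log2 fold change was 0.04, with a 95% interval from -0.11 to 0.20 (edgeR adjusted p = 0.62), and its sign turned (-0.02) when the middle Control (NT) library was left out. *Grb10* is expressed from the maternal copy in most tissues and from the paternal copy in neurons, and the gene total adds both.

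In the *Dlk1*-*Dio3* locus on chromosome 12, 2 of 3 genes were called lower. *Dlk1*, a transmembrane relative of the Notch ligand Delta, had 4.87, 7.46 and 4.12 CPM in Control (NT) and 0.549, 0.207 and 0.276 CPM in KD-1. All Control (NT) libraries were above all KD-1 libraries, a 16.3-fold lower level (log2 fold change -4.03, standard error 0.37, edgeR adjusted p = 2.5e-05). *Rtl1*, a retrotransposon-derived gene needed in placenta and muscle, had 60, 56 and 141 counts in the Control (NT) libraries and 0, 4 and 8 in those of KD-1. With so few KD-1 counts its log2 fold change of -5.06 (standard error 0.54, edgeR adjusted p = 6.4e-05) is imprecise, with a 95% interval from -6.30 to -3.83. *Dio3*, which encodes the deiodinase that inactivates thyroid hormone, had 10, 19 and 24 counts in the Control (NT) libraries and 8, 15 and 15 in those of KD-1. Its groups did not overlap on the CPM scale, but it missed the threshold (log2 fold change -1.08, edgeR adjusted p = 0.055) and was called with limma-voom and without robust estimation. *Rasgrf1*, a Ras exchange factor gene whose control region is also methylated on the paternal copy, had 2, 0 and 3 counts in the Control (NT) libraries and 8, 3 and 13 in those of KD-1, too few to be tested.

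The 4 tested genes at *Igf2*-*H19* and *Dlk1*-*Dio3* had a median log2 fold change of -4.15, and the 14 tested paternally expressed genes of the other listed loci had a median of 0.45. These 4 genes are few and 3 of them share a locus, so they are not independent of each other. The split was made after the values were seen, and it puts *Rtl1*, *Igf2* and *Dlk1*, the steepest falls of the list, on one side.

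In the *Peg3* locus on chromosome 7, all 3 listed genes were called lower. *Peg3*, a paternally expressed zinc finger gene, had 732, 510 and 732 CPM in Control (NT) and 160, 167 and 172 CPM in KD-1. The library of middle depth was the lowest of its group, yet well above every KD-1 library, and *Peg3* was 3.95-fold lower (log2 fold change -1.98, standard error 0.13, edgeR adjusted p = 4.1e-06). *Usp29*, a ubiquitin-specific peptidase gene read in the opposite direction from a start beside that of *Peg3*, had 24.7, 19.4 and 21.8 CPM in Control (NT) and 10.7, 11.2 and 11.1 CPM in KD-1. Its log2 fold change was -0.996 (standard error 0.10, edgeR adjusted p = 4.1e-05), with a 95% interval from -1.22 to -0.77, while that of *Peg3* ran from -2.29 to -1.68. The maternally expressed neighbour *Zim1*, also a zinc finger gene, had 6.66, 5.36 and 7.42 CPM in Control (NT) and 1.69, 1.91 and 1.45 CPM in KD-1. It did not overlap between the groups and was called lower (log2 fold change -1.96, standard error 0.18, edgeR adjusted p = 2.7e-05).

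*Peg3* and *Usp29* start 108 bases apart at one shared control region, and *Sgce* and *Peg10* start 98 bases apart at another. Both stretches are shown because each separates a pair of paternally expressed genes, with both genes of the first called lower in KD-1 and *Peg10* of the second called higher. They were read from the plus strand of GRCm39 between the annotated gene starts, and capitals mark TGCCGC, the sequence that ZFP57 binds when it is methylated, searched on both strands (as TGCCGC or GCGGCA).
*Peg3*-*Usp29* (chr7:6733469-6733576): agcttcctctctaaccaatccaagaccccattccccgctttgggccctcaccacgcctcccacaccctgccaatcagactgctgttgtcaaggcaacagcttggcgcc
*Sgce*-*Peg10* (chr6:4747208-4747305): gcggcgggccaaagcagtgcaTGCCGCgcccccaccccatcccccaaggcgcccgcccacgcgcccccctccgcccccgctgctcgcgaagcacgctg
The *Sgce*-*Peg10* stretch holds the motif once, and it is present in 4.1% of RefSeq promoter stretches of the same length (GRCm38.p6, 32851 promoters). It has 13 CG pairs and 79.6% G and C, and 8.91% of those promoter stretches have at least as many CG pairs. The *Peg3*-*Usp29* stretch holds no copy of the motif, where 4.48% of promoter stretches of its length do, and has 3 CG pairs, the median of those stretches. These letters describe only these short windows, not the whole control regions. Over the 300 bases around each RefSeq start (250 before, 50 after), 12 of 54 promoters of 34 imprinted genes (22.2%) held the motif, beside 11.6% of all promoters. The 12 include nearly coinciding starts of *Mest*, and the shares were not matched for CG content. Of the 11 genes with it, *Igf2*, *Nnat*, *Zim1*, *Commd1* and *Osbpl5* were called lower and *Plagl1*, *Calcr*, *Nap1l5* and *Snrpn* higher. *Grb10* and *Mest* were not called.

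*Nnat*, which encodes the proteolipid neuronatin and lies inside an intron of *Blcap* on the other strand, had the highest level per exon length in Control (NT), 245 CPM per kb. It had 472, 557 and 498 CPM in Control (NT) and 124, 111 and 107 CPM in KD-1. The groups were well separated, with a 4.48-fold lower level (log2 fold change -2.16, standard error 0.08, edgeR adjusted p = 2.0e-07). Its host *Blcap* lay between 31.1 and 34.3 CPM in Control (NT) and between 27.0 and 29.2 CPM in KD-1 (log2 fold change -0.23, under the fold threshold).

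*Gnas* encodes the stimulatory G protein alpha subunit and, from other promoters, imprinted transcripts of either parental copy that the gene total adds up. It had 390, 502 and 404 CPM in Control (NT) and 178, 166 and 158 CPM in KD-1. No Control (NT) library overlapped KD-1, and the log2 fold change was -1.37 (standard error 0.10, edgeR adjusted p = 7.1e-06). *Impact*, an inhibitor of the kinase GCN2, had 339, 277 and 312 CPM in Control (NT) and 200, 209 and 208 CPM in KD-1. It lay at the edge of the fold threshold (log2 fold change -0.59, standard error 0.08, edgeR adjusted p = 2.1e-04), and 13 of 18 other settings did not call it. *Mest*, a hydrolase gene strongly expressed in embryonic mesoderm, had 553, 609 and 516 CPM in Control (NT) and 404, 388 and 388 CPM in KD-1. Its groups did not overlap, and its log2 fold change of -0.51 (edgeR adjusted p = 2.6e-04) was under the fold threshold. The opposite-strand neighbour *Copg2* had a log2 fold change of -0.08.

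In the *Kcnq1* locus on chromosome 7, whose members here are maternally expressed, 4 of the 6 genes tested were called lower, none was called higher and all 6 log2 fold changes were negative. Among its members, the imprinting of *Ascl2*, *Cd81*, *Tssc4* and *Osbpl5* is restricted to some tissues. *Cdkn1c*, which encodes the cyclin-dependent kinase inhibitor p57, had 45.0, 77.7 and 48.5 CPM in Control (NT) and 38.0, 32.3 and 33.9 CPM in KD-1. The middle library was far above the rest of its group, and the log2 fold change of -0.72 (standard error 0.19, edgeR adjusted p = 0.0091) became -0.44 without it, under the fold threshold. *Phlda2*, which limits placental growth, had 34, 69 and 114 counts (1.64, 2.04 and 2.06 CPM) in Control (NT) and 28, 15 and 51 counts (0.668, 0.345 and 0.587 CPM) in KD-1. Its groups did not overlap on the CPM scale, and it fell the most of this locus (log2 fold change -1.84, standard error 0.30, edgeR adjusted p = 7.1e-04).

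*Tssc4*, a spliceosome-associated protein gene, had 51.9, 61.3 and 55.4 CPM in Control (NT) and 31.4, 29.9 and 30.3 CPM in KD-1. The separation was clear (log2 fold change -0.88, standard error 0.08, edgeR adjusted p = 1.7e-05). *Osbpl5*, an oxysterol-binding protein gene, was only just past the fold threshold, at 2.56, 2.72 and 2.73 CPM against 1.88, 1.88 and 1.49 CPM (log2 fold change -0.62, standard error 0.18, edgeR adjusted p = 0.016), and 5 of 18 other settings did not call it. The tetraspanin gene *Cd81* had a log2 fold change of -0.44, under the fold threshold. *Slc22a18*, a transporter family gene with at most 29 counts, had -0.22 with a 95% interval from -1.51 to 1.07, and its sign turned without the Control (NT) library of highest depth (0.20) or the KD-1 library of middle depth (0.02). The trophoblast factor gene *Ascl2* (3, 11 and 12 counts against 1, 4 and 9) and the potassium channel gene *Kcnq1* itself (6, 0 and 1 against 0, 1 and 1) were too low to be tested.

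*Commd1*, an endosomal trafficking gene that hosts *Zrsr1* in an intron, had 69.1, 100.4 and 85.6 CPM in Control (NT) and 51.0, 49.7 and 50.5 CPM in KD-1. The KD-1 libraries lie close together, below the spread-out Control (NT) libraries (log2 fold change -0.76, standard error 0.12, edgeR adjusted p = 5.5e-04). A near-identical overlapping identifier, *Commd1b*, had a log2 fold change of -0.08, and the sum of both went from 73.3, 107 and 92.5 CPM to 57.1, 56.8 and 56.8 CPM.

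**Figure D2:**
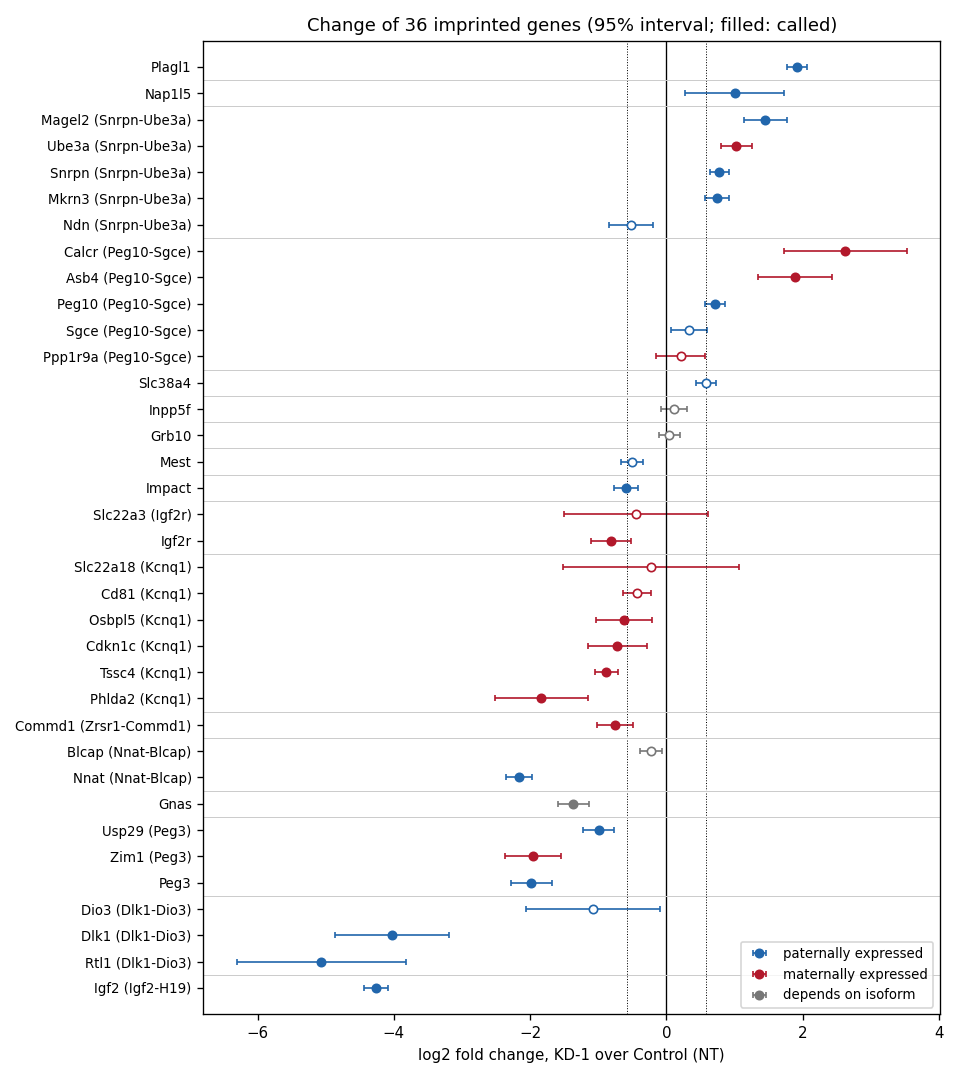
Log2 fold change of KD-1 over Control (NT) for the 36 imprinted genes tested, with 95% intervals from edgeR's quasi-likelihood fit, colours giving the expressed parental copy, filled points the called genes and dotted lines the 1.5-fold threshold. Paternally and maternally expressed genes stand on both sides of 0. All 3 genes at *Peg3* were called lower, and all 5 at *Peg10*-*Sgce* stand above 0.

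Among the genes that rose, *Plagl1* had the smallest adjusted p. It encodes the zinc finger factor ZAC1 (ENSMUSG00000019817, GRCm39 chromosome 10, plus strand). It had 42.9, 38.7 and 41.5 CPM in Control (NT) and 152, 161 and 151 CPM in KD-1. With tight groups on both sides the level was 3.77-fold higher (log2 fold change 1.92, standard error 0.06, edgeR adjusted p = 8.3e-08). The 250 bases before a RefSeq start of *Plagl1*, a gene whose promoter lies in its control region, are shown with the same motif in capitals (here GCGGCA, the motif on the other strand).
*Plagl1* (GRCm38.p6, plus strand, chr10:13090582-13090831): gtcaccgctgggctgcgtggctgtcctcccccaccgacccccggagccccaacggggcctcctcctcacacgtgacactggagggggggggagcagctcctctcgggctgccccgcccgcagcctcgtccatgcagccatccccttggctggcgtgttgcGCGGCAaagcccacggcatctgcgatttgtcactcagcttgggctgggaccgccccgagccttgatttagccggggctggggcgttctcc
The stretch holds the motif once and 19 CG pairs. Over the 300 bases around each RefSeq start, 11.6% of all promoters hold the motif.

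In the *Peg10*-*Sgce* locus on chromosome 6, all 5 tested genes had positive log2 fold changes and 3 were called higher. *Peg10*, a retrotransposon-derived gene essential in placenta, had 303, 264 and 282 CPM in Control (NT) and 467, 464 and 460.1 CPM in KD-1. It was 1.64-fold higher, with no overlap (log2 fold change 0.71, standard error 0.06, edgeR adjusted p = 2.1e-05). *Sgce* (epsilon-sarcoglycan), which shares the short stretch above with *Peg10*, had 9.79, 8.08 and 10.6 CPM in Control (NT) and 12.1, 12.4 and 11.5 CPM in KD-1. Its log2 fold change of 0.33 (edgeR adjusted p = 0.031) was under the fold threshold. *Asb4*, a SOCS-box gene of ubiquitin ligases, had 15, 16 and 35 counts in the Control (NT) libraries and 86, 104 and 196 in those of KD-1. The groups did not overlap on the CPM scale either, with means of 0.610 ± 0.126 and 2.23 ± 0.171 CPM (SD, n = 3 each) and a log2 fold change of 1.89 (standard error 0.24, edgeR adjusted p = 1.8e-04). *Calcr*, the calcitonin receptor gene, had only 3, 3 and 8 counts in the Control (NT) libraries and 32, 37 and 67 in those of KD-1 (log2 fold change 2.63, standard error 0.39, edgeR adjusted p = 4.4e-04). *Ppp1r9a*, which encodes the actin-binding neurabin, overlapped between the groups (log2 fold change 0.21, edgeR adjusted p = 0.27).

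The *Snrpn*-*Ube3a* locus on chromosome 7, the counterpart of the Prader-Willi and Angelman region, had 4 of 5 genes called higher. *Ube3a*, a ubiquitin ligase gene whose imprinting is known from neurons, had 144, 109 and 124 CPM in Control (NT) and 242, 260.1 and 265 CPM in KD-1. It was 2.04-fold higher without overlap (log2 fold change 1.03, standard error 0.10, edgeR adjusted p = 3.1e-05). *Magel2*, a MAGE family gene, had 3.38, 3.94 and 3.03 CPM in Control (NT) and 9.61, 9.98 and 8.58 CPM in KD-1 (log2 fold change 1.45, standard error 0.14, edgeR adjusted p = 3.2e-05). *Mkrn3*, a RING finger ubiquitin ligase gene, had 12.8, 14.2 and 13.1 CPM in Control (NT) and 21.7, 23.0 and 22.5 CPM in KD-1 (log2 fold change 0.74, standard error 0.08, edgeR adjusted p = 4.7e-05). Neither gene overlapped between the groups. *Ndn*, which encodes the MAGE family protein necdin and lies next to *Magel2*, had 34.0, 49.9 and 37.9 CPM in Control (NT) and 31.8, 26.6 and 26.8 CPM in KD-1. The groups did not overlap, and the log2 fold change of -0.52 (standard error 0.14, edgeR adjusted p = 0.011) was under the fold threshold, which it passed without the lowest-depth library of either group.

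*Snrpn*, which encodes a spliceosomal protein, had 66.9, 74.6 and 68.1 CPM in Control (NT) and 123, 116 and 120.4 CPM in KD-1. The groups did not overlap (log2 fold change 0.78, standard error 0.06, edgeR adjusted p = 1.1e-05). Its reads are shared with the overlapping identifiers *Gm38393* and *Snurf* on the same strand, so its own count is uncertain. *Gm38393* had a log2 fold change of 1.94, whereas the counts of *Snurf* were 38, 43 and 77 for Control (NT) and 38, 0 and 0 for KD-1. The sum of the 3 identifiers went from 151, 114 and 129 CPM to 334, 364 and 359 CPM, a log2 fold change of 1.43, over 1.5 times the fold seen for *Snrpn* alone.

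*Nap1l5*, a nucleosome assembly family gene inside *Herc3*, had 18, 50 and 37 counts (0.868, 1.48 and 0.668 CPM) in Control (NT) and 92, 94 and 144 counts (2.19, 2.16 and 1.66 CPM) in KD-1. The groups came close but did not overlap (log2 fold change 1.00, standard error 0.32, edgeR adjusted p = 0.022), and 6 of 18 other settings did not call it. *Slc38a4*, an amino acid transporter gene, had 77.2, 67.3 and 71.9 CPM in Control (NT) and 105, 107 and 110.0 CPM in KD-1. Its log2 fold change of 0.58 (standard error 0.06, edgeR adjusted p = 7.5e-05) lay just under the fold threshold. It was called in 10 of 18 other settings, among them the setting with no fold threshold. *Inpp5f*, an inositol phosphatase gene with an imprinted isoform, overlapped between the groups at 34.5 to 43.4 CPM (log2 fold change 0.11, edgeR adjusted p = 0.27).

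Both directions occurred in both parental classes. Of the 18 paternally expressed genes tested, 6 were called higher and 7 lower, with a median log2 fold change of -0.51. Of the 14 maternally expressed genes tested, 3 were called higher and 7 lower, with a median of -0.53. The paternal median turned to 0.38 when a gene had to have 10 or more counts in each library. This filter left out *Dlk1*, *Rtl1* and *Dio3*, which had negative log2 fold changes and few KD-1 counts. It thus selects on the outcome and is no separate check. The paternal median turned to 0.45 without the loci methylated on the paternal copy, a split made after the values were seen. That split leaves out the same genes and *Igf2*. Among the 6 tested maternally expressed genes whose imprinting is not restricted to placenta or brain, 1 was called higher and 4 lower, with a median of -0.77. In the 4 genes whose expressed copy depends on the isoform (*Grb10*, *Gnas*, *Blcap* and *Inpp5f*), only *Gnas* was called.

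The 3 loci with tested genes of both classes hold 13 of the genes. In the *Peg3* locus, both paternally expressed genes and the maternally expressed one fell. In the *Peg10*-*Sgce* locus, 2 of 2 paternally and 3 of 3 maternally expressed genes had positive log2 fold changes. In the *Snrpn*-*Ube3a* locus, 3 of 4 paternally expressed genes and the maternally expressed *Ube3a* were called higher. No gene of one class was called in the opposite direction to a called gene of the other class in these 3 loci. The imprinting of *Usp29*, *Calcr*, *Ppp1r9a* and *Ube3a* is restricted to some tissues, so their class need not hold in gastruloids. The unrestricted maternally expressed genes here are *Zim1* and *Asb4*.

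Summed over the 39 genes, the level was 5765, 5443 and 5624 CPM in Control (NT) and 3389, 3359 and 3351 CPM in KD-1. The mean sum fell by 2244 CPM, made up of falls of 2805 CPM and rises of 560.2 CPM. *Igf2* alone fell by 1155 CPM, *Peg3* fell by 492 CPM, *Nnat* fell by 395 CPM and *Gnas* fell by 265 CPM. *Igf2* made up 21.7% of the summed level in Control (NT) and 1.89% in KD-1. The paternally expressed genes carried most of this change, from 3655 to 3966 CPM in Control (NT) libraries to 1863 to 1890 CPM in KD-1 libraries. The sum of the maternally expressed genes lay between 652 and 676 CPM in Control (NT) and between 604 and 626 CPM in KD-1. The largest rises were those of *Peg10* (181 CPM), *Ube3a* (130.1 CPM) and *Plagl1* (114 CPM).

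**Figure D3:**
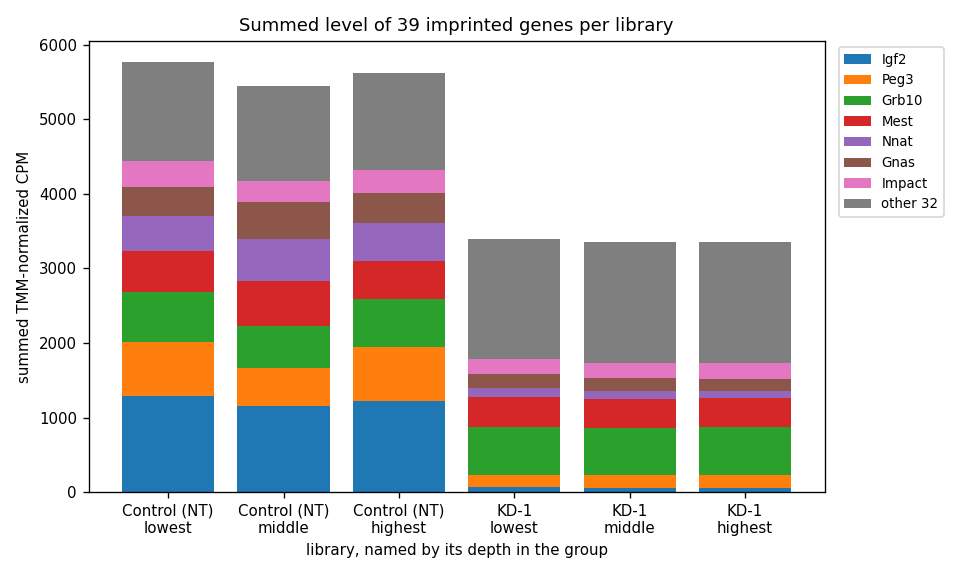
Summed TMM-normalized CPM of the 39 imprinted genes in each library, stacked by gene, with the 7 genes of highest mean level in Control (NT) shown apart. The Control (NT) sums lie between 5443 and 5765 CPM and the KD-1 sums between 3351 and 3389 CPM, and the *Igf2* and *Nnat* segments shrink while *Grb10* stays near its level.

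Per kb of exon length the order of the genes was not the same in both groups. In Control (NT) *Nnat* (245 CPM per kb) and *Igf2* (198 CPM per kb) stood far above *Mest* (69.3), *Grb10* (60.7), *Peg3* (48.2) and *Peg10* (42.4). In KD-1 *Peg10* was first at 69.6 CPM per kb, followed by *Grb10* (62.4), *Nnat* (54.7) and *Mest* (48.7), and *Igf2* ranked 16 at 10.3 CPM per kb. *Plagl1* moved from rank 20 to rank 7, from 4.79 to 18.1 CPM per kb. At the other end, *Kcnq1* and *Rasgrf1* were the lowest in Control (NT), at 0.0200 and 0.00408 CPM per kb, levels that a handful of reads set.

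The genes around the loci were examined with the same fit. Within 500 kb of the start of an imprinted gene of the list lay 132 other tested genes, of which 25 were called higher and 27 lower, 39.4% beside 37.7% of all genes tested, with a median log2 fold change of 0.04. Of the 15 neighbours at *Peg3*, where the imprinted genes fell, 7 were called higher and 1 lower, with a median of 0.49. They included *Eddm13* (log2 fold change 2.34), *Smim17* (1.67) and *Zscan5b*, which had 0 counts in every Control (NT) library, 17, 13 and 38 in KD-1, and was at least 3.97-fold higher. Many of these neighbours are zinc finger genes, like *Peg3*.

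At *Plagl1*, which rose, 1 of 8 neighbours was called higher and 5 were called lower. The largest changes were those of the splicing factor gene *Sf3b5* (-2.19), *Phactr2* (-1.61), which is itself imprinted in some tissues, and *Stx11* (1.48). At *Peg10*-*Sgce*, 3 of 11 neighbours were called higher and 2 lower, among them the collagen gene *Col1a2* (-3.87), the pyruvate dehydrogenase kinase gene *Pdk4* (2.37) and *Samd9l* (2.20). At *Igf2*, 2 of 4 neighbours were called lower, *Lsp1* (-3.17) and the mitochondrial ribosomal protein gene *Mrpl23* (-0.68). In the *Kcnq1* locus 2 of 10 were called lower, *Nadsyn1* (-0.85) and the same *Mrpl23*, and at *Dlk1*-*Dio3* only *Hsp90aa1* of 6 was called (0.69).

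At *Igf2r*, 2 of 10 neighbours were called higher and 2 lower, with *Gm16574* (-3.62), *Mas1* (1.94) and *Pnldc1* (1.72) changing most. Around *Gnas* the 3 called of 7 were *Edn3* (3.19), *Nelfcd* (-0.72) and *Atp5f1e* (-0.62). Around *Nnat*, 4 of 9 were called, all lower, with *Mtcl2* (-0.97) first, then *Manbal* (-0.79) and *Rpn2* (-0.75). Beside *Nap1l5* lay *Fam13a* (-1.24) and its host *Herc3* (0.61), beside *Commd1* lay *B3gnt2* (2.94) and *Xpo1* (0.68), and in the *Snrpn*-*Ube3a* locus lay *Gm38393* and *Peg12* (1.14). None of the 3 neighbours of *Impact* was called. Near *Mest*, which was not called itself, lay *Cpa5* (-4.30, standard error 0.86), among the largest changes of all neighbours. Its means were only 0.731 CPM in Control (NT) and 0.0421 CPM in KD-1. Means were also low for *Gm16574* (0.0781 CPM) and *Col1a2* (0.0929 CPM) in KD-1. The same holds for *Mas1* (0.160 CPM), *Edn3* (0.174 CPM) and *Smim17* (0.170 CPM) in Control (NT). A few reads set such levels, so these fold changes are imprecise.

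**Figure D4:**
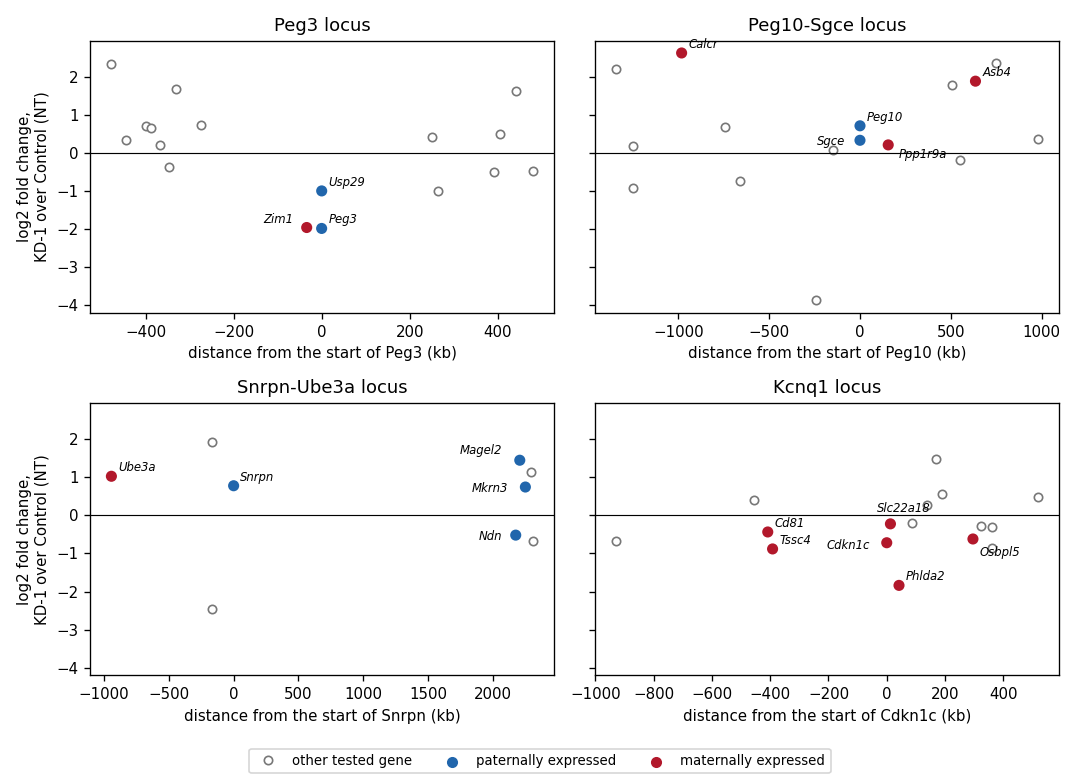
Log2 fold change of KD-1 over Control (NT) against distance in kb from the start of 1 gene of the locus, for the imprinted genes (blue paternally, red maternally expressed) and the other tested genes within 500 kb of one of them (open circles). The 3 imprinted genes at *Peg3* lie at or below -0.996 while 7 of the 15 neighbours were called higher. *Zscan5b*, at 0 counts in Control (NT), is left out.

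Imprinted genes outside the list of 40 were compared as a further list of 34, of which 25 were in the table and 18 were tested. Of these 18, KD-1 had 9 called higher and 3 called lower, with a median log2 fold change of 0.69. *Kcnk9*, a potassium channel gene, had 1, 0 and 2 counts in the Control (NT) libraries and 35, 46 and 76 in those of KD-1, a ratio of pooled counts of 33.4 with an exact 95% counting interval from 11.2 to 164. The Krüppel-like factor gene *Klf14*, next to *Mest*, fell from 41, 94 and 107 counts to 11, 7 and 6 counts (log2 fold change -3.88, standard error 0.45, edgeR adjusted p = 9.5e-05). *Pon3*, a paraoxonase gene of the *Peg10*-*Sgce* locus, rose from 0.434, 0.296 and 0.505 CPM to 1.36, 1.31 and 1.67 CPM (log2 fold change 1.79, standard error 0.30, edgeR adjusted p = 8.8e-04). The imprinted lncRNAs *H19*, *Meg3*, *Rian*, *Mirg*, *Airn*, *Kcnq1ot1* and *Peg13* were not analysed here.

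Of 18 genes that set, keep or read imprints, 4 were called higher and 2 lower, with a median log2 fold change of 0.15. *Zfp57* had 96.5, 106 and 96.4 CPM in Control (NT) and 104, 106 and 104 CPM in KD-1, with overlapping groups (log2 fold change 0.07, edgeR adjusted p = 0.30). *Zfp445* (0.40), *Trim28* (-0.13), *Dppa3* (0.49), the maintenance methyltransferase gene *Dnmt1* (-0.23) and its partner *Uhrf1* (-0.28) were not called either. Of these, *Zfp445*, *Dnmt1* and *Uhrf1* did not overlap between the groups and missed only the fold threshold (edgeR adjusted p = 0.01, 0.021 and 0.0028). *L3mbtl1*, a chromatin reader gene that is imprinted in human, had 2, 4 and 12 counts in the Control (NT) libraries and 15, 34 and 37 in those of KD-1 (log2 fold change 1.71, standard error 0.52, edgeR adjusted p = 0.018). *Zfp42*, a pluripotency factor gene whose product binds some imprinted control regions, rose from 93.6, 106 and 103 CPM to 281, 268 and 275 CPM (log2 fold change 1.45, standard error 0.06, edgeR adjusted p = 3.5e-07). *Dnmt3l*, the cofactor of germline methylation, fell from 9.21, 10.6 and 8.95 CPM to 3.48, 3.68 and 3.77 CPM (log2 fold change -1.39, standard error 0.12, edgeR adjusted p = 1.8e-05). The remaining 3 called regulators were named after their values were seen. The chromatin remodeller gene *Hells* rose (log2 fold change 0.85, edgeR adjusted p = 8.4e-06), as did the CTCF paralogue *Ctcfl* (0.77, edgeR adjusted p = 0.0055), and the methyltransferase gene *Dnmt3a* fell (-0.74, edgeR adjusted p = 4.3e-06). Its level was 122, 119 and 120 CPM in Control (NT) and 71.1, 73.2 and 71.8 CPM in KD-1. The paper that reported these data instead names *Dnmt3a* among the pluripotency genes that were higher in the knockdown.

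Cell type markers changed as well, and their part in these results was not tested. All 9 tested somite and paraxial mesoderm markers were called lower, and their summed level went from 522 to 602 CPM in Control (NT) libraries to 45.5 to 46.0 CPM in KD-1 libraries. Most of the KD-1 sum was *Pax3* (mean of 42.2 CPM). Of 10 naive pluripotency markers, 8 were called higher, from 443 to 491 CPM to 1432 to 1469 CPM. The summed level of neural markers (6 of 9 tested called higher) rose from 162 to 164 CPM to 271 to 281 CPM. *Nes*, the neural marker with the highest Control (NT) mean, was lower in KD-1, at means of 114.7 and 84.7 CPM. Its log2 fold change of -0.44 was under the fold threshold, and *Irx3* and *Neurog2* were not called either. The summed level of primordial germ cell markers (6 of 8 called higher) rose from 45.6 to 47.6 CPM to 134 to 136 CPM. Of the 5 feeder fibroblast markers tested, 4 were called lower, and the summed level of the list went from 28.9 to 40.6 CPM to 13.1 to 14.8 CPM. Most of this sum was *Fbn1* (means of 27.3 and 13.3 CPM). The summed level of cardiac and lateral mesoderm markers (3 of 4 tested called lower) went from 7.38 to 8.88 CPM to 2.46 to 2.83 CPM. Endothelial markers (2 higher and 2 lower of 4 tested) went from 17.4 to 18.9 CPM to 33.4 to 35.5 CPM, and definitive endoderm markers (2 higher and 2 lower of 5 tested) from 145 to 174 CPM to 305 to 311 CPM. Most of the endothelial sum was *Pecam1* (means of 14.5 and 29.4 CPM), called higher with *Tek*, while *Kdr* and *Etv2* were called lower. Most of the endoderm sum was *Trh* (means of 130.4 and 265 CPM), called higher with *Epcam*. The endoderm markers *Cer1* (log2 fold change -7.93) and *Foxa1* (-2.57) were called lower. In trophoblast several of the listed genes are imprinted, and the summed level of 10 trophoblast markers went from 24.8 to 29.8 CPM to 52.0 to 54.7 CPM. Of the 5 tested, *Tfap2c* was called higher, *Plac1* was called lower, and *Gcm1*, *Elf5* and *Krt7* were not called. *Tfap2c* (means of 23.3 and 49.7 CPM) made up most of the trophoblast sum and is also among the primordial germ cell markers. *Prl3d1* and *Tpbpa* had 0 counts in every library, *Ctsq* and *Hand1* at most 3 and *Psg17* at most 5.

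The Control (NT) library of middle depth also differed from its group by transcript length. Its median log2 ratio to the other Control (NT) libraries was 0.14 for genes under 2 kb of exon length and -0.11 for genes over 8 kb. The median log2 ratio of KD-1 to those same Control (NT) libraries was -0.11 and 0.04 for these genes, and their median log2 fold change was -0.24 and 0.08. The part of length in the results was not tested. Without this library, *Cdkn1c* was the 1 imprinted gene that lost its call, none gained one, and the fold of no gene moved by more than 1.34 times.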

How the data were processed

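RNA of day 5 gastruloids was prepared with an Illumina TruSeq kit and, per the submitters' processing notes, handled with bcl2fastq and Salmon 1.1. The authors deposited the estimated counts that Salmon gave, summed per Ensembl gene as whole numbers and not normalized. The genome build and the species series of the Gencode model are not given in the sources used here, nor is the use of strand, so overlapping genes and near-identical copies share reads with uncertain division. GENCODE vM39 (GRCm39) gave gene names, positions and exon lengths, and held 35222 of the 35565 identifiers. Promoter sequences are RefSeq's, on GRCm38.p6.

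Counts were tested with edgeR 4.0.16 in R 4.3.3 on all genes: filterByExpr with defaults (15110 genes kept), TMM, robust glmQLFit and glmQLFTest with only the condition in the model, and p-values adjusted by Benjamini-Hochberg. The standard error is the log2 fold change divided by the square root of F. The biological coefficient of variation was 10.6%. A count of 3, taken as the limit that a count of 0 allows, is 0.145 CPM in the shallowest and 0.0345 CPM in the deepest library, and intervals on counts cover counting error only. The labels name biological replicates without saying how they were separated, so p-values measure the spread between these libraries.

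The imprinted genes and all gene lists were chosen with earlier results of these data known. Every listed gene is accounted for. Library values are given for called genes with at least 10 counts in some library, and for neighbours (within 500 kb), other imprinted genes and regulators the up to 3 called genes with the largest absolute log2 fold change are named, for neighbours over all loci and at each locus with a called listed gene, with *Zfp57*, *Zfp445*, *Trim28*, *Dppa3*, *Dnmt1* and *Uhrf1* always. *Copg2*, *Commd1b*, *Gm38393* and *Snurf* are named because they overlap a listed gene.

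The alternatives were DESeq2 1.42.0, limma-voom (limma 3.58.1), RLE, upper-quartile or library size scaling, no low count filter, a minimum of 10 counts per library, fits without robust estimation, glmTreat, each library left out in turn, other fold thresholds, other windows and other groupings. Summed overlapping identifiers and the grouping by methylated copy were added after seeing the data. The scripts were tested on simulated data.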

Additional observations from a re-analysis of the deposited data

How the results depend on the processing

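Of 642 log2 fold changes of the 36 imprinted genes under the alternatives, 584 kept their direction and their side of the threshold. At an absolute log2 fold change over 1, 13 imprinted genes were called (5 higher, 8 lower, in place of 9 and 15), with 32 neighbours and 3 regulators in place of 52 and 6, beside 21.7% of all genes tested. With no fold threshold, 82 neighbours and 12 regulators passed, beside 63.5% of all genes. The paternal median was 0.38 with at least 10 counts in every library, 0.45 without loci with a paternally methylated control region, and between -0.57 and -0.40 when single libraries were left out. The settings that gave 0.38 and 0.45 both leave out *Dlk1*, *Rtl1* and *Dio3*, which had negative log2 fold changes. The maternal median was -0.77 without genes of restricted imprinting. With single libraries left out, signs turned for *Grb10* (-0.0245 to 0.0848) and *Slc22a18* (-0.73 to 0.20, with 0.02 without the middle KD-1 library). Tested against a 1.5-fold change (glmTreat), *Igf2r*, *Commd1*, *Cdkn1c*, *Osbpl5*, *Impact* and *Nap1l5* were not called. The causes were not tested. No paired analysis was possible because the column names carry no replicate number that matches the sample labels. Genes under about 10 counts per library, such as *Kcnq1*, *Ascl2* and *Rasgrf1*, were beyond this depth.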

Other observations

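The remaining called genes among the imprinted genes outside the list of 40 were named after their values were seen. *Zdbf2*, a zinc finger gene that acts in growth and feeding and whose locus also carries methylation on the paternal copy, had 227, 145 and 195 CPM in Control (NT) and 468, 511 and 523 CPM in KD-1, without overlap (log2 fold change 1.41, standard error 0.14, edgeR adjusted p = 4.8e-05). The polycomb-related gene *Sfmbt2* had 21.2, 15.9 and 18.5 CPM in Control (NT) and 45.5, 47.1 and 47.9 CPM in KD-1 (log2 fold change 1.34). *Gatm* (1.74), which encodes the first enzyme of creatine synthesis, *Atp10a* (1.49), a lipid flippase gene, and *Ddc* (1.13), the decarboxylase gene next to *Grb10*, were called higher as well. *Ago2*, which encodes a slicing Argonaute, and *Trappc9* lie on chromosome 15 near *Kcnk9*, and had log2 fold changes of 0.96 and -0.64. *Peg12* (1.14), beside *Magel2* and *Mkrn3*, had 36.1, 35.7 and 38.3 CPM in Control (NT) and 83.4, 80.1 and 79.4 CPM in KD-1.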
